A study of Mus musculus with 8 samples.

Results

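Rnf186 and the annotated genes on either side of it, Otud3 and Tmco4, were examined in the livers of mice infused into the portal vein with 4-HPAA (4-hydroxyphenylacetic acid, which gut microbes make) or with normal saline. The 3 genes, of 35975 genes with a transcript in the table, had 6 of the 119414 transcripts counted. Rnf186 was selected because its estimated counts were near 0 with saline and not with 4-HPAA, so its own difference is given as a description, with no test. Otud3 and Tmco4 were selected by position, to ask whether genes near Rnf186 moved with it.

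Each group had 4 mice of the C57BL/6 strain (C57BL/6J in the methods), aged 8 to 10 weeks, with 1 liver library per mouse. The study used males and females, and the sex of each mouse with a library was not given in the sources used here. In both groups a catheter was placed in the portal vein and connected to a subcutaneous osmotic pump that delivered 0.25 µL per h for 2 weeks, and the mice were housed singly. The pumps held 55 mM 4-HPAA in normal saline or normal saline alone, so the surgery, the vehicle and the housing were shared. The libraries were made from whole liver, in which fewer cells of a type and less RNA per cell cannot be told apart. Total estimated counts lay between 29559978 and 30673398 per library. The summed globin level, as CPM (counts scaled to a common library size and normalized by TMM), was 2437 in normal saline replicate 2 and 637 in 4-HPAA replicate 4, against 66.2 to 331 in the other libraries.

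Rnf186 encodes a RING-type E3 ubiquitin ligase of the endoplasmic reticulum membrane. E3 ligases attach ubiquitin to chosen proteins, and Rnf186 is best known from the epithelium of the colon and from the association of its human counterpart with ulcerative colitis. Otud3 encodes a deubiquitinase of the OTU family, an enzyme class that removes ubiquitin from proteins. Tmco4 encodes a protein with transmembrane and coiled-coil domains. Enzymes that add and remove ubiquitin therefore lie side by side in this interval.

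In the GENCODE M21 annotation of GRCm38, Rnf186 (ENSMUSG00000070661) lies on chromosome 4, positions 138967112 to 138968360, on the plus strand. It is a single exon of 1249 bases with a coding sequence of 840 bases, so it offers no splice junction for a read to cross. Otud3 (ENSMUSG00000041161; 138895379 to 138913945) lies on the minus strand, has 8 exons and points away from Rnf186, with 53.167 kb between the start sites. Tmco4 (ENSMUSG00000041143; 138972888 to 139059171) lies on the plus strand and begins 4.528 kb beyond the end of Rnf186. The 3 genes together span 163.792 kb.

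The first 90 coding bases of each gene are shown to identify the messages that were counted, 5′ to 3′ on the coding strand, from the GENCODE M21 transcripts. Capitals mark the start codon. They lie at chr4:138967151-138967240 (plus strand) for Rnf186, chr4:138913738-138913827 (minus strand) for Otud3 and chr4:138990551-138990640 (plus strand) for Tmco4.
Rnf186: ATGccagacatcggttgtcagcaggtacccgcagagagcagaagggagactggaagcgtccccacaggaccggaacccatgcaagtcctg
Otud3: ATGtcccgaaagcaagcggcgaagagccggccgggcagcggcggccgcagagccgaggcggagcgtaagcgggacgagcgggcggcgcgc
Tmco4: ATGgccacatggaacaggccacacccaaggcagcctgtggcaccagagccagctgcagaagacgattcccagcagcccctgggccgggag

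The single Rnf186 transcript, ENSMUST00000116094.4, had estimated counts of 0.000610, 0.000350, 1.25 and 4.58 in normal saline replicates 1 to 4. With 4-HPAA it had 19.2, 142.6, 134.7 and 106.6 in replicates 1 to 4. The groups did not overlap, and 4-HPAA replicate 1 lay nearer to the highest saline library than to the other 4-HPAA libraries. The means were 1.46 ± 2.16 with saline and 100.8 ± 56.6 with 4-HPAA (SD, n = 4), or 0.0496 ± 0.0744 and 3.38 ± 1.85 CPM. No fold is given, because 3 of the 4 saline libraries were under 3 counts, and the gene did not reach the minimum of 10 counts in every library that was set for the test.

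The values themselves were fractional, and this led to a second row of the table. The counting program, kallisto, divides a read that matches several transcripts among them, so the estimated counts of transcripts that share reads only with each other add up to a whole number. The Rnf186 transcript was whole, within 0.01, in 2 of the 8 libraries, although the annotation gives the gene 1 transcript. Exactly 1 row of the table gave a whole sum with it in all 8 libraries. That row, ENSMUST00000239443.1, is not in GENCODE M21, and the references used here give it no gene, so its position and sequence were not analysed here.

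ENSMUST00000239443.1 ran the opposite way to Rnf186 in 4-HPAA replicates 2, 3 and 4. Among the other libraries both were highest in 4-HPAA replicate 1. ENSMUST00000239443.1 had 75.0, 135.0, 126.7 and 148.4 estimated counts in normal saline replicates 1 to 4. With 4-HPAA it had 172.8 in replicate 1 and 0.408, 0.262 and 0.391 in replicates 2, 3 and 4. It was therefore near 0 in the 3 libraries with the most Rnf186 and high in 4-HPAA replicate 1, so that its groups overlapped.

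The sum of these 2 transcripts was 75, 135, 128 and 153 counts in normal saline replicates 1 to 4. With 4-HPAA the sum was 192, 143, 135 and 107 in replicates 1 to 4. The groups overlapped, with the lowest sum in a saline library and the highest in a 4-HPAA library. The mean sum was 122.8 ± 33.5 with saline and 144.2 ± 35.4 with 4-HPAA (SD, n = 4), a difference of 21.5 counts that was smaller than the SD of either group. In CPM the sums were 4.12 ± 1.22 and 4.90 ± 1.28. Where the difference between group means was 3.33 CPM for the Rnf186 transcript alone, it was 0.773 CPM for the sum.

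The division of the sum between its rows varied among the libraries. Rnf186 held 0.000813%, 0.000259%, 0.979% and 2.99% of the sum in normal saline replicates 1 to 4. With 4-HPAA it held 9.98% in replicate 1 and 99.7%, 99.8% and 99.6% in replicates 2, 3 and 4. No library lay between 9.98% and 99.6%, and 4-HPAA replicate 1 lay with the saline libraries in this respect. These shares are estimates of the counting model and not counts of reads, so no counting interval is given for them. Whether the division reflects different messages or the way reads were assigned was not tested.

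**Figure D1:**
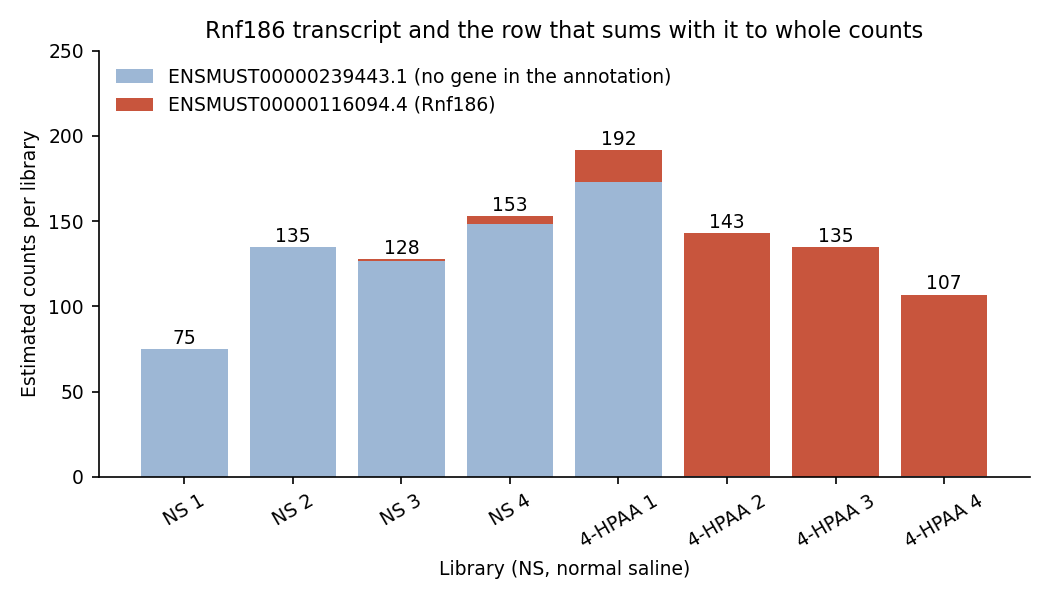
Estimated counts of the Rnf186 transcript (red) and of ENSMUST00000239443.1 (blue), stacked for each library, with their sum above each bar. The sums run from 75 to 153 with normal saline (NS) and from 107 to 192 with 4-HPAA, and red fills 99.6% or more of the bar in 4-HPAA replicates 2, 3 and 4 and at most 9.98% elsewhere.

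Other transcripts had a pattern like that for which Rnf186 was selected. The cutoffs of 5 and 10 counts used here were not part of the selection. Rnf186 lay just under the lower one, at up to 4.58 counts with saline, so the numbers below do not measure how unusual it is. Transcripts under 5 counts in every saline library and at 10 or more in every 4-HPAA library numbered 12 of 119414 (0.01%), Rnf186 included, and 5 (0.00419%) had the reverse pattern. Of these, 11 of the 12 and all 5 had counts that were not whole, within 0.01, in at least 4 libraries. Fractional counts were usual, as only 9.36% of all values above 0 in the table were whole. For each of the 16 other than Rnf186, the total of the gene overlapped between the groups in CPM. That is usual, since only 1.2% of all genes tested did not overlap. Rnf186 was the 1 gene of this set whose total did not overlap. The pattern fixed this in advance, as the annotation used here gives Rnf186 only 1 transcript. Its total overlapped once ENSMUST00000239443.1 was added.

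Otud3 was measured without this ambiguity. Its single transcript, ENSMUST00000097830.3 (1668 bases), had a whole count in all 8 libraries. The counts were 154, 155, 155 and 142 with saline and 149, 207, 172 and 150 with 4-HPAA. The groups overlapped, and 4-HPAA replicate 2 was the highest library. In CPM, Otud3 was at 5.05 ± 0.196 with saline and 5.73 ± 0.799 with 4-HPAA (SD, n = 4). The log2 fold change was 0.18 (SE 0.12), with an unadjusted p of 0.171 and an adjusted p of 1.00 by edgeR's quasi-likelihood test. Without 4-HPAA replicate 2 the log2 fold change was 0.08.

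Across all 12883 genes tested, 0 (0.0%) passed an adjusted p of 0.05 by edgeR, and 225 (1.75%) had an unadjusted p under 0.05. DESeq2 called 2 genes (Ggnbp1 and Zfp36l2, named after their values were seen) and limma-voom called 0, with 210 at an unadjusted p under 0.05. Neither neighbour was among the genes called by any of these tools.

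Tmco4, the nearer neighbour, had the same mean in both groups to within 1 count. The totals over its 4 transcripts were 488, 621, 635 and 585 with saline and 560, 674, 608 and 488 with 4-HPAA, whole in all 8 libraries. The groups spanned almost the same range. The levels were 19.5 ± 2.60 CPM with saline and 19.7 ± 2.21 CPM with 4-HPAA (SD, n = 4). The log2 fold change was 0.02 (SE 0.12; unadjusted p = 0.888; edgeR adjusted p = 1.00). Its sign depended on single libraries, at -0.07 without normal saline replicate 1 and -0.05 without 4-HPAA replicate 2. Whole totals show that the reads assigned to Tmco4 were divided among its own transcripts and not with the Rnf186 row, within a tolerance of 0.01 counts.

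**Figure D2:**
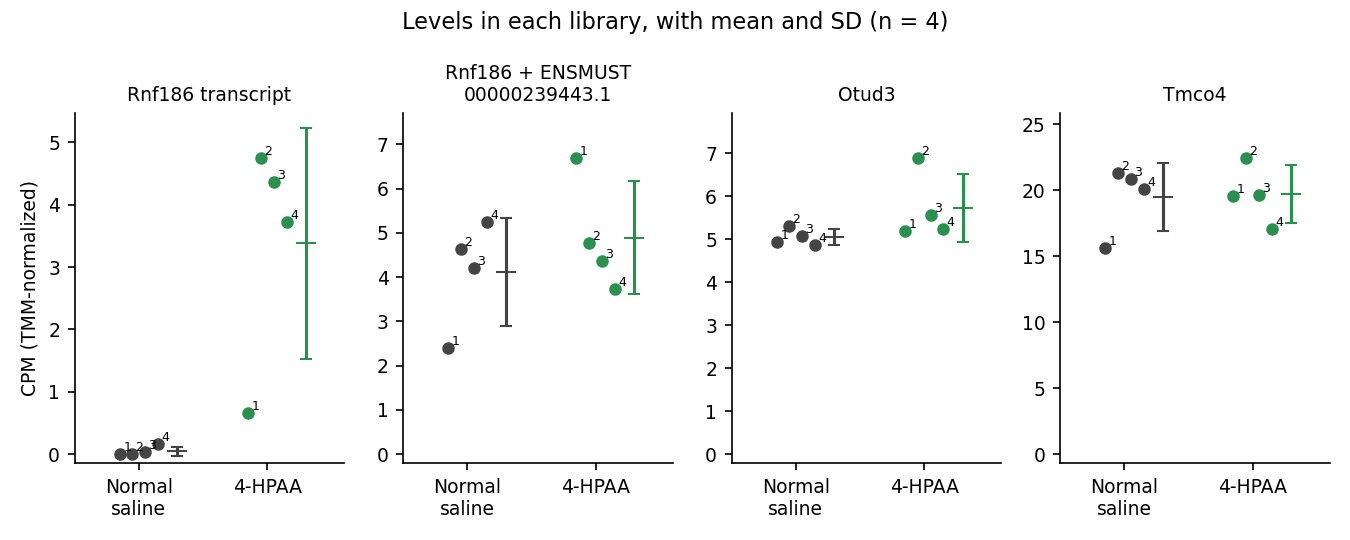
Levels of the Rnf186 transcript, of its sum with ENSMUST00000239443.1, of Otud3 and of Tmco4 in CPM (vertical axes from 0, each with its own scale); points are libraries with their replicate number, and bars are mean ± SD (n = 4). The groups are apart for the Rnf186 transcript alone (0.0496 against 3.38 CPM) and overlap in the other 3 panels.

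Within Tmco4 the reads were divided mainly between ENSMUST00000043042.9 (16 exons, 2922 bases) and ENSMUST00000050949.8 (17 exons, 3318 bases). Both carry the same coding sequence of 1893 bases and differ in the 5′ untranslated exons. The first exon ends at position 138972989 or 138973287, and the next exon begins at 138977208 or, where that exon is skipped, at 138983621. The 4 annotated transcripts hold the 4 combinations of these ends. ENSMUST00000123636.7 also ends after 5 exons, and ENSMUST00000124835.2 also differs in later exons and ends in an exon of its own. The 30 bases around each first junction are shown because the 2 main transcripts differ there: the last 15 bases of the first exon in lower case and the first 15 of the next in capitals, on the plus strand (GENCODE M21, GRCm38).
ENSMUST00000043042.9: ccagcccagcccctgGTTCCACACCCTCTG
ENSMUST00000050949.8: cgctgccgcctccagTGCCGGGAGCCCGTG
ENSMUST00000123636.7: ccagcccagcccctgTGCCGGGAGCCCGTG
ENSMUST00000124835.2: cgctgccgcctccagGTTCCACACCCTCTG

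ENSMUST00000043042.9 held 40.6%, 59.3%, 64.0% and 54.5% of the Tmco4 counts in normal saline replicates 1 to 4. With 4-HPAA it held 60.6%, 44.3%, 34.5% and 41.6% in replicates 1 to 4. The groups overlapped: normal saline replicate 1 was among the low libraries and 4-HPAA replicate 1 among the high ones. The mean share was 54.6% ± 10.1 with saline and 45.2% ± 11.1 with 4-HPAA (SD, n = 4), a difference of -9.35 percentage points (exact permutation test, two-sided, p = 0.343; 0.0286 is the smallest p that 70 splits allow).

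ENSMUST00000050949.8, which has the longer first exon and includes the second, held 36.5% ± 11.0 with saline and 47.5% ± 11.4 with 4-HPAA (SD, n = 4). Its counts were 250.9, 190.8, 167.3 and 220.4 with saline and 177.8, 313.8, 344.7 and 268.5 with 4-HPAA. The ranges overlapped, with 4-HPAA replicate 1 below 3 of the saline libraries. Of all transcripts tested, 50.6% had a log2 fold change above 0. In a fit over 25977 single transcripts, of which 0 (0.0%) were called by edgeR and 1000 (3.85%) had an unadjusted p under 0.05, its log2 fold change was 0.44 (SE 0.21; unadjusted p = 0.0625; adjusted p = 1.00). ENSMUST00000043042.9 had -0.27 (SE 0.26; adjusted p = 1.00), and from -0.45 without normal saline replicate 1 to -0.15 without normal saline replicate 3.

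The division between these 2 transcripts rests on few bases. Of the 31-base words of ENSMUST00000043042.9, 98.5% also occur in ENSMUST00000050949.8, and 86.6% of the words of the latter occur in the former. The minor transcripts were ENSMUST00000123636.7, a partial coding transcript of 5 exons, and ENSMUST00000124835.2, which has no annotated coding sequence. The former held 6.48% ± 0.557 with saline and 5.43% ± 1.88 with 4-HPAA, with a log2 fold change of -0.19 (SE 0.33; edgeR adjusted p = 1.00). Leaving out 4-HPAA replicate 4 turned that change to 0.06. The latter held 2.39% ± 0.555 and 1.82% ± 0.856 (SD, n = 4) and was not tested, as it fell under 10 counts in some libraries. All 4 transcripts overlapped between the groups, where 2.1% of the transcripts tested did not.

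**Figure D3:**
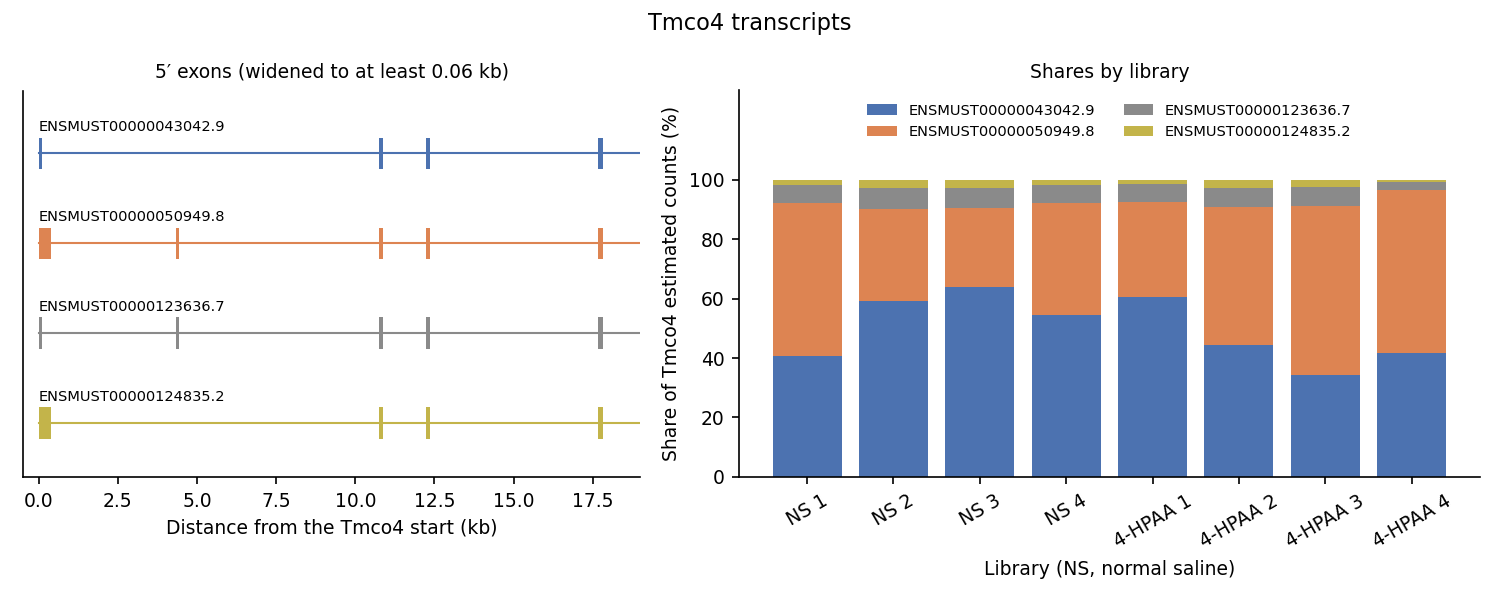
Left, the 5′ exons of the 4 Tmco4 transcripts against distance from the gene start in kb (boxes are exons, drawn at least 0.06 kb wide). Right, the share of Tmco4 estimated counts held by each transcript in each library, where ENSMUST00000043042.9 (blue) runs from 40.6% to 64.0% with normal saline (NS) and from 34.5% to 60.6% with 4-HPAA.

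The question of whether genes near Rnf186 moved with it was then put to the wider interval. The annotation places 16 other genes wholly within 250 kb, 13 of them in the table and 3 with enough counts to be tested: Otud3, Tmco4 and Minos1. Minos1, a subunit of the complex that organizes the inner mitochondrial membrane, had means of 836 and 804 counts with saline and 4-HPAA, and a log2 fold change of -0.03 (SE 0.11; edgeR adjusted p = 1.00). Capzb, a subunit of the capping protein of actin filaments, begins inside the window and ends beyond it, and had a log2 fold change of -0.01 (SE 0.07; edgeR adjusted p = 1.00). Between Otud3 and the far side of the window lies a cluster of secreted phospholipase A2 genes, which release fatty acids from phospholipids. Pla2g2c, Pla2g2f, Pla2g5, Pla2g2a and Pla2g2e reached at most 2 counts in any library, and Pla2g2d had means of 3.35 and 3.10 counts with saline and 4-HPAA. Gm13030, Htr6 (a serotonin receptor) and Hspe1-ps4 had 0 counts in every library, and Nbl1, a secreted BMP antagonist, had means of 9 and 8 counts. Ubxn10, which crosses the other edge of the window, had means of 2.50 and 1.75 counts. Gm25280, Gm45533 and Gm16287 had no row that was used here. The filter on counts left these genes out of the test, as it did Rnf186. At such counts a small difference between the groups was not detectable in them. A rise like that of Rnf186, which had 19.2 to 142.6 counts with 4-HPAA, would have been visible, and those with a row did not show it. Nbl1 had the highest count among them with 4-HPAA, 17, which lay within its range of 0 to 22 with saline.

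Wholly within 1 Mb, 59 other genes are annotated, 40 had a row and 20 were tested. Of the 20, 13 had a log2 fold change above 0 and 7 below, or 65.0% above against 50.4% of all genes tested. None was called by edgeR (0.0% of all genes), 0 had an unadjusted p under 0.05 (1.75% of all genes) and 0 had groups that did not overlap (1.2% of all genes). The log2 fold changes ran from -0.22 for Cda, a cytidine deaminase, to 0.19 for Gm21969, with a median of 0.02 against 0.0007 over all genes. That median was 0.0085 without normal saline replicate 1 and 0.0456 without normal saline replicate 4. Otud3, at 0.18, had the second highest log2 fold change of the interval, and Tmco4 lay near its middle.

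**Figure D4:**
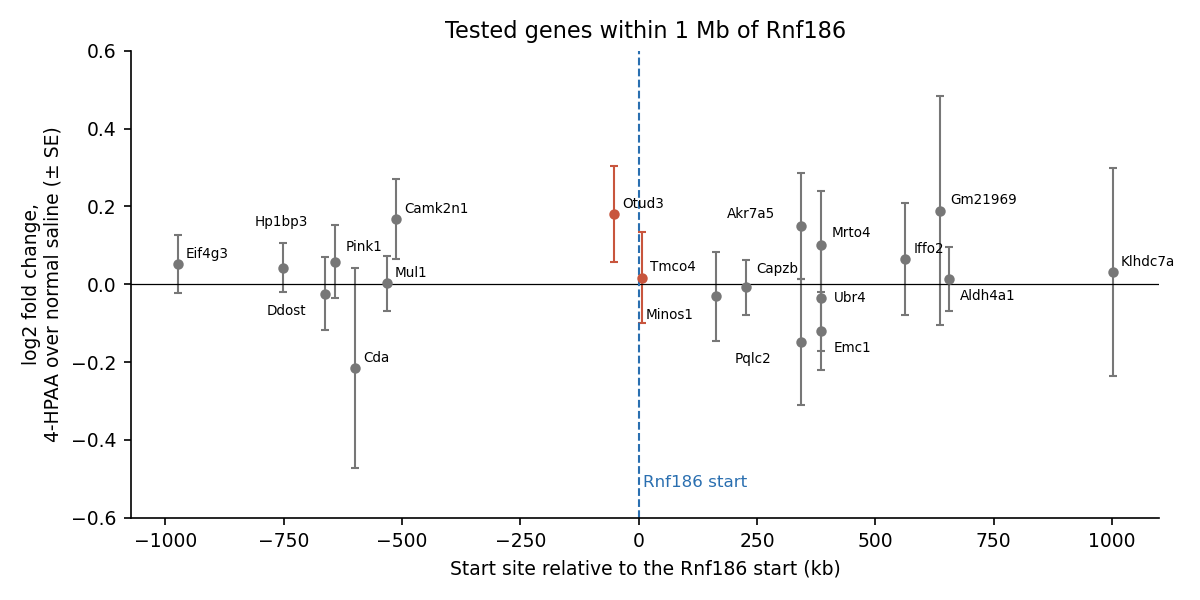
log2 fold change (4-HPAA over normal saline, ± SE, n = 4 per group) of the 20 tested genes within 1 Mb of Rnf186, against the distance of their start sites from the Rnf186 start in kb; Otud3 and Tmco4 in red. The values lie between -0.22 and 0.19, and 0 of the 20 passed the test.

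The correlation of Rnf186 with its neighbours over the libraries was not tested. The libraries fell into separate clusters of Rnf186 (0 to 19 counts in 5 libraries and 107 to 143 in 3), each too small for a test. The sum with ENSMUST00000239443.1 has no such clusters, and its correlation was added after the data were seen. Over the 8 libraries the sum and Otud3 had Pearson r = 0.201 (exact permutation p = 0.513) and Spearman rho = 0.0952 (exact permutation p = 0.840). The sum and Tmco4 had r = 0.705 (exact permutation p = 0.0555, adjusted over the 2 relations 0.111) and rho = 0.452 (exact permutation p = 0.267, adjusted 0.535). Without the 2 libraries farthest from the median sum, 4-HPAA replicate 1 and normal saline replicate 1, r was 0.0988 with Otud3 and 0.668 with Tmco4. Neither relation passed.

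Among relatives of Rnf186, the membrane RING ligases Rnf183 and Rnf182 reached at most 1 count in any library. Rnf152, a lysosomal member of the same family, had 27.4 ± 5.65 CPM with saline and 29.2 ± 9.01 CPM with 4-HPAA (SD, n = 4; log2 fold change 0.09, SE 0.23; edgeR adjusted p = 1.00). Of 22 E3 ligases of the endoplasmic reticulum, 19 were tested, 14 had a log2 fold change above 0 and 5 below, and 0 were called, with a median of 0.02. For this list and those that follow, 50.4% of all genes tested were above 0 and 0.0% were called. The median log2 fold change of all genes tested was 0.0007. The largest difference in that list was -0.28 (SE 0.28) for Rnf122. Of 17 OTU deubiquitinases, the family of Otud3, 14 were tested, 9 were above 0 and 5 below, and 0 were called, with a median of 0.01. Otud1 had the largest value, 0.27 (SE 0.14; edgeR adjusted p = 1.00). Of 21 genes of the response to unfolded proteins in the endoplasmic reticulum, all were tested, 10 were above 0 and 11 below, and 0 were called. The largest value there, -1.21 (SE 0.67) for the stress transcription factor Atf3, followed 1 library, as normal saline replicate 1 was at 4.42 CPM and the other 7 between 0.485 and 1.01 CPM.

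Markers of tissues other than liver were read beside Rnf186, because its best known site is the gut. Of 17 gut epithelium markers, 10 had a mean of 3 counts or fewer, among them the intestinal transcription factors Cdx1 and Cdx2, the mucin Muc2 and the brush border enzymes Alpi and Sis. Other members were well counted and made up much of the sum. Cdhr5 had means of 55.2 and 54.2 CPM with saline and 4-HPAA. Fabp2 had 51.4 and 51.5 CPM, and Lgals4 had 27.2 and 24.9 CPM. The summed level of the list ran from 134 to 231 CPM with saline and from 122 to 238 CPM with 4-HPAA, and 0 of the 6 tested members were called. Tff3, a secreted mucosal peptide, had the largest difference, -0.39 (SE 1.19). Vil1, named after its values were seen, had 0.282 ± 0.0699 CPM with saline and 0.0932 ± 0.0322 CPM with 4-HPAA (SD, n = 4) without overlap, at 2 to 11 counts per library and so untested. The other markers of this list all overlapped between the groups, where 1.2% of all genes tested did not.

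The summed levels of the other marker lists overlapped between the groups as well. Bile duct markers ran from 37.7 to 60.0 CPM with saline and from 37.4 to 51.96 CPM with 4-HPAA, with 0 of 6 called and the largest difference, 0.43 (SE 0.31), for Sox9. Pancreatic acinar markers ran from 9.43 to 13.5 and from 10.4 to 15.5 CPM, with 9 of 12 genes at 3 counts or fewer and Cela2a at 0.34 (SE 0.29). Kidney tubule markers ran from 1.70 to 1.75 and from 1.61 to 2.66 CPM, with 6 of 9 genes at 3 counts or fewer and Lrp2 at 0.47 (SE 0.27). The 10 hepatocyte markers were all tested and together ran from 118379 to 139234 CPM with saline and from 111692 to 140835 CPM with 4-HPAA, which fits the liver label, with the largest difference, 0.11 (SE 0.18), for Apob.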

How the data were processed

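Liver RNA of 4 mice per group was sequenced as paired-end reads from directional mRNA libraries. The authors joined the reads of the flow cells, pseudo-aligned them with kallisto and deposited estimated counts per transcript, without normalization or pooling of mice. The methods name an NCBI annotation of GRCm38.p6, whereas the rows carry Ensembl identifiers, and 9.36% of values above 0 were whole. Columns were matched to mice by name, with 0 left over.

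Counts were summed per gene by GENCODE M21 (116728 of 119414 transcripts matched, 2686 not) and rounded. The test, run in R 4.3.3, was the quasi-likelihood F test of edgeR 4.0.16 after TMM scaling, on genes or transcripts that reached 10 counts in each of the 8 libraries, with p-values adjusted over all features by Benjamini-Hochberg and a threshold of 0.05. To get the SE, the log2 fold change was divided by the root of F. CPM use TMM. Depth was alike in all libraries. The spread between libraries holds both counting noise and the spread between mice, which were not separated. The members, lists and tests were chosen with earlier results of these data known. Gene results were also computed with limma-voom (limma 3.58.1), with DESeq2 1.42.0 and with RLE or total-count scaling. They were run again with other filters and windows, with a replicate block and without each library. The transcript fit was rerun by edgeR only, with at least 10 counts summed, with the replicate block and without each library. Steps were tested on simulated data.

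Genes named are the members and their transcripts, every gene lying wholly or partly within 250 kb of Rnf186, the largest difference of each of the 9 lists, the Rnf183 family and the 5 genes most correlated with Rnf186 in log2 CPM (prior count 2, at least 80 counts summed over the libraries), of which the last in order is not reported here. Other genes, such as the ends of a range, examples from a list and genes called by an alternative, were named after their values were seen. No protein sequence is shown.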

Additional observations from a re-analysis of the deposited data

Results flagged for a closer look

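In groups of 4, a library was singled out where its gap to the nearest other library as a share of the range of the group exceeded Dixon's 95% critical value. Of 38 groups examined 4 met this, where chance gives about 1.9.

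ENSMUST00000239443.1, whose counts add up with those of Rnf186 to whole numbers, had 172.8 estimated counts in 4-HPAA replicate 1 against 0.262 to 0.408 in the other 4-HPAA libraries. The minor Tmco4 transcript ENSMUST00000123636.7 held 2.63% of the Tmco4 counts in 4-HPAA replicate 4 against 6.16% to 6.51% in the other 4-HPAA libraries. The same library had the highest summed level of OTU deubiquitinases, the family of Otud3, at 397 CPM against 364 to 368 CPM. It also had the highest summed level of gut epithelium markers, at 238 CPM against 122 to 140 CPM. Tff3 alone was at 75.1 CPM there against 2.40 to 4.36 CPM, and normal saline replicate 4 likewise had 83.6 CPM of Tff3 and a sum of 231 CPM. 4-HPAA replicate 4 was the 4-HPAA library with the most globin counts (637 CPM against 66.2 to 88.5). The part of that library in these values was not tested.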

How the results depend on the processing

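Adding ENSMUST00000239443.1, chosen after seeing the data, lowered the Rnf186 difference from 3.33 to 0.773 CPM. Leaving out single libraries gave 2.87 to 4.23 CPM, Otud3 0.08 to 0.23 and Tmco4 -0.075 to 0.074 (log2 fold changes; Tmco4 reversed without normal saline replicate 1 or 4-HPAA replicate 2), ENSMUST00000123636.7 -0.349 to 0.0593 and the Tmco4 share difference -14.5 to -5.76 points. Without the 2 libraries with the most globin in their groups (added later), Otud3 was at 0.24 and Tmco4 at 0.12. Otud3, Tmco4, the interval and the lists gave 0 calls under every alternative run for them. The gene fit called 0 to 1 gene (CAAA01147332.1 without 4-HPAA replicate 1) and 2 by DESeq2, and the transcript fit 0 to 1 (of Mrps24, without the same library). At an unadjusted p under 0.05, 225 genes became 415 with at least 10 counts summed, 528 with no filter, where more genes entered the fit, and 1000 transcripts became 2140 with the summed filter. Without 4-HPAA replicate 1 there were 340 genes and 1557 transcripts (the cause was not tested). Without a filter, 20 genes of the interval instead of 13 were above 0, but more of its genes entered that fit. These 20 are thus not the 20 tested in the main fit, and the median log2 fold change without a filter was 0.028.

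With the replicate block, 0 genes were called (336 at an unadjusted p under 0.05), Otud3 was at 0.17 and Tmco4 at 0.02. Same-numbered libraries correlated at 0.0398, 0.168, 0.268 and 0.480 in their deviations, normal saline replicates 1 and 3 did not correlate best with their own number, and the numbers were not taken as pairs.

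The correlation of Rnf186 itself with its neighbours on log2 CPM is given only as a description (separate clusters) and was not run on linear CPM. Otud3, with 1 transcript, has no transcript shares. Labels say nothing of batches. Estimated counts near 0 are model output and not reads.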

Other observations

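Some other transcripts, like that of Rnf186, were under 5 counts in every library of one group and at 10 or more in every library of the other. The totals of their genes overlapped between the groups, as those of most genes tested did. Besides Rnf186 there were 16 such transcripts from 14 genes, and the log2 ratio of mean gene CPM between the groups lay between -0.15 and 0.25. The median absolute log2 fold change over all genes tested was 0.07. Tdp1, a DNA repair phosphodiesterase, had a transcript in each direction: ENSMUST00000153627.7 went from a mean of 0.00130 to 64.1 estimated counts where ENSMUST00000021594.4 went from 55 to 0.0239. Ppp1r16b had the same exchange, with ENSMUST00000045503.10 at means of 0.00649 and 37.7 and ENSMUST00000103116.9 at 29.1 and 0.00308 with saline and 4-HPAA. Rilp was the other case with exactly 1 row that made the sum whole: ENSMUST00000156923.1 (36.3 and 1.14 counts) with ENSMUST00000042972.6 of the same gene. Of the 13918 genes with a mean of at least 10 estimated counts, 5105 (36.7%), Otud3 and Tmco4 included, had whole totals in all 8 libraries. These genes were picked by their values, and no test is given.

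The genes whose log2 CPM was most like that of the Rnf186 transcript over the 8 libraries, of 13920 compared, were Fbxo9 (r = 0.927), Zbtb1 (0.923), Zdhhc3 (0.907) and Pex7 (0.904). Fbxo9, a substrate receptor of a ubiquitin ligase, had 1563 to 1670 counts with saline. With 4-HPAA it had 1595, 1782, 1876 and 1696 counts in replicates 1 to 4. These counts overlapped between the groups but are not scaled to library size. The CPM of Fbxo9, on which the correlation rests, are not given. On the same measure Otud3 had r = 0.640, in place 404, and Tmco4 had r = 0.134, in place 4805. The libraries form separate clusters of Rnf186, whose values were also those it was selected by. The first 4 genes are the highest of all compared. With 8 libraries and so many genes these correlations are descriptions only, and none was tested.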
